A study of Mus musculus with 18 samples.

Results

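Kinesin motor genes were chosen by name, as the symbols made of Kif, a number and any letters after it, that are listed in all 5 tables deposited for this study. There were 37 such genes among the 27179 genes of the stage and regional tables, and they had 56 transcripts among the 35729 transcripts of the mutant table. By their known roles, 9 were grouped as transport kinesins (the Kif1, Kif3 and Kif5 families), 11 as mitotic, 7 as ciliary and 10 as others. Kif2b had no reads in any table, which left 36 genes with reads. Kif12 stayed under 1 normalized read and is not given a direction. A further symbol of the pattern, Kif16bos, belongs to an antisense RNA and was left out.

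Kinesins are motor proteins that use ATP to move along microtubules or to take their ends apart. In neurons the Kif1 and Kif5 motors carry vesicles, mitochondria and other cargo from the cell body down the axon, and motor neurons (MNs), whose axons leave the spinal cord, depend on them over long distances. Other members build the mitotic spindle and divide the cell, and others work in cilia.

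RNA of sorted spinal MNs was sequenced in 18 samples: 3 brachial, 3 thoracic and 3 lumbar samples at p8 (postnatal day 8), 3 Hoxc8 mutant samples at e12.5 and 6 control samples at e12.5 (e12 below). The p8 cells were sorted by tdTomato from ChatIRESCre::Ai9 mice, in which Cre made from the Chat locus of cholinergic cells switches on the reporter. The e12 cells were sorted by GFP from mice carrying Mnx1-GFP, which marks cells that use Mnx1, a homeobox gene of MNs. In the mutants (Olig2-Cre::Hoxc8 fl/fl, called Hoxc8 MNΔ early) Cre is made in the Olig2 lineage, which holds MN progenitors and later oligodendrocytes, and the Hoxc8 fl/fl controls carry no deletion, while the labels call the controls wild type. The methods give pools of several cords per replicate for the e12.5 Mnx1-GFP and the p8 samples, and do not state pooling for the mutant experiment. For brachial tissue the study's methods give C4 to T1 where stages were compared, and C7 to T2 in the mutant experiment. Stage, reporter and number of pooled cords change together between p8 and e12 and cannot be told apart.

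The 5 tables give, for each feature, a base mean (read counts scaled by a size factor per sample and averaged over all samples of the table), a log2 fold change, its standard error and a p-value, and none of them holds a value per sample. The values below are thus levels recovered from base mean and fold change together, in normalized reads, with a 95% interval (normal) of the log2 fold change in place of a spread between replicates. Base means of genes with 1 read in 1 library show the size factors of 6 e12 libraries and of 2 p8 libraries in the stage table. Such genes also tie libraries across tables: of those with a single read in the mutant table, 33 of 33, 37 of 40 and 54 of 54 genes of 3 e12 libraries fell in 1 control library each. The stage and mutant comparisons thus share 3 control libraries and are not independent. By the same count, the 6 e12 libraries of the stage table include 3 of the mutant experiment, for which the methods give the segments C7 to T2 and Hoxc8 fl/fl animals, so that segments and genotype may also differ between p8 and e12.

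The p8 libraries did not hold MN RNA alone. All 10 oligodendrocyte markers reported (Mbp, Mobp and others) were higher at p8, and they made up 39.5% of the summed level of all genes at p8, against 0.00898% at e12. All 7 microglial markers were higher at p8 too, with a summed level of 21497 at p8 and 89.1 at e12. Of 7 MN markers 4 were higher at e12, with a summed level of 1210 at p8 and 7502 at e12, and Chat itself was at 37.8 at p8 and 202 at e12 (interval 0.08 to 4.76, adjusted p = 0.0836). Of 9 pan-neuronal markers 8 were higher at e12, and the 10 markers of inhibitory and excitatory interneurons were all higher at e12. Of markers of other cells, 5 of 5 for oligodendrocyte precursors, 4 of 5 for astrocytes, 4 of 5 for endothelial cells, 2 of 3 for Schwann cells and 1 of 3 for erythroid cells were higher at p8, and 0 were higher at e12. Levels solved in this way cannot be 0 for a gene with reads, so whether a marker was undetected at a stage was not tested. The 36 kinesins together held 0.270% of the summed level at p8, against 0.769% at e12. In such bulk libraries fewer cells of a type and less RNA per cell cannot be told apart, and the part of these other cells in the kinesin values was not tested.

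Between p8 and e12, 30 of the 36 kinesins with reads had a p-value. At an adjusted p under 0.05 (Wald test of DESeq2 as deposited by the authors, 2-sided, Benjamini-Hochberg over the 18787 genes with a p-value), 8 kinesins were higher at p8 and 10 were higher at e12. Over all tested genes 23% were called higher at p8 and 24.8% higher at e12, so the counts over all kinesins lay near this background. The direction differed by group. Of the transport kinesins 1 was higher at p8 and 5 at e12, of the mitotic kinesins 5 at p8 and 0 at e12, and of the ciliary kinesins 2 at p8 and 0 at e12. Of the other kinesins 0 were higher at p8 and 5 at e12. In the same order, 9, 8, 4 and 9 members of these groups had a p-value. At an unadjusted p under 0.05 the same counts were 1 and 5, 6 and 0, 3 and 0, and 0 and 5. The share of all genes past the unadjusted threshold was not counted, so these counts have no background beside them. The median log2 fold change of e12 over p8 was 1.16 for the transport, -2.27 for the mitotic, 0.25 for the ciliary and 1.16 for the other kinesins, beside -0.10 over all genes with reads. Over all genes with a p-value it was -0.04, and 0.01 over those that also had a base mean of at least 10. Genes with their only read in 1 e12 library had a value of -0.77, toward p8, so signs of near-empty genes are not reliable.

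**Figure D1:**
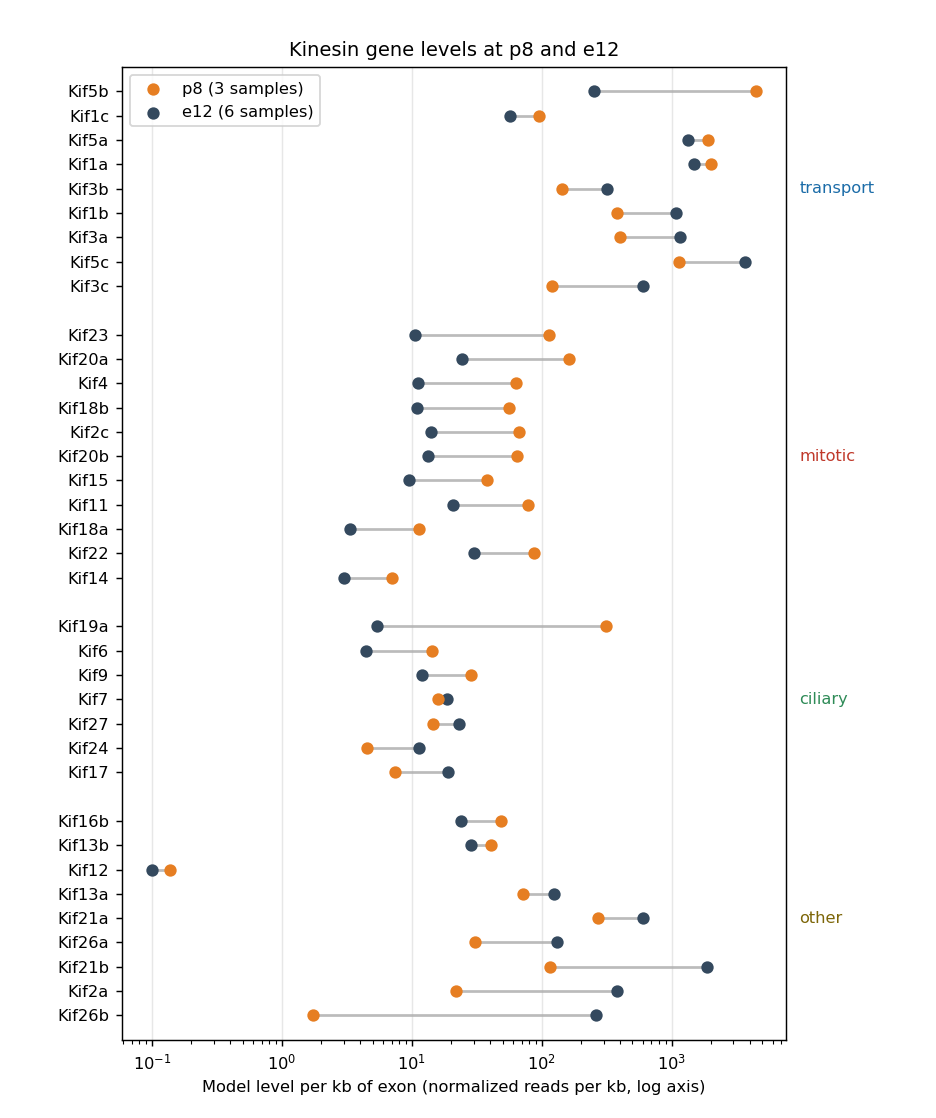
Level per kb of exon of the 36 kinesins with reads, at p8 (orange, 3 samples) and e12 (dark, 6 samples), on a log axis in normalized reads per kb. Each row is a gene and the line joins its 2 levels. The transport kinesins hold the highest values, with Kif5b leading at p8 and Kif5c at e12. All 11 kinesins grouped as mitotic lie higher at p8, of which Kif14 changes side with equal summed levels. Kif2a, grouped with the others, lies higher at e12.

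The stage table scales samples by size factors, and the summed level of all genes came to 36210981 at p8 and 15398259 at e12. Setting these sums equal, a choice made after seeing the data, adds 1.23 to every log2 fold change of e12 over p8. Leaving 11 oligodendrocyte markers (those 10 and 1 that is not reported) out of the sums adds 0.40. Over all tested genes these choices gave 2191 and 3467 genes called higher at p8 and 8325 and 5764 higher at e12, beside 4315 and 4663 on the deposited scale. The calls of the 6 transport kinesins counted above were kept under both, as were those of the 5 other kinesins and of Kif19a. The mitotic calls were not: with equal sums 0 of the 8 tested mitotic kinesins were called, with adjusted p between 0.0503 and 0.384 for the 5 that had been, and with the oligodendrocyte markers left out 4 were called, all higher at p8. The mitotic calls thus held on the scale of the size factors and not with equal sums. The same choice also moved the counts of the partner lists: with equal sums 1 division partner was called higher at p8 and 1 at e12, 0 genes of intraflagellar transport at p8 and 14 at e12, 2 light chains and adaptors at p8 and 14 at e12, 3 genes of dynein and dynactin at p8 and 14 at e12, and 0 Kifc genes at p8 and 1 at e12.

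The Kif5 family, the heavy chains of conventional kinesin, changed its make-up between the stages. Kif5a and Kif5c are made chiefly in neurons, and Kif5b is made in most cell types. Kif5b (chromosome 18 from 6201005 to 6241524, GRCm38) reached a level of 35710 at p8 and of 2026 at e12, 17.6-fold higher at p8. Its log2 fold change of e12 over p8 was -4.14 (interval -5.25 to -3.03, adjusted p = 2.89e-12). Kif5c (chromosome 2 from 49619286 to 49774778) went the other way, with 8128 at p8 and 26323 at e12, 3.24-fold higher at e12 (interval of the log2 fold change 0.34 to 3.05, adjusted p = 0.0312). Kif5a (chromosome 10 from 127225695 to 127266348), in which mutations cause hereditary spastic paraplegia in humans, was at 13417 at p8 and 9356 at e12, and was not called (interval -1.73 to 0.69, adjusted p = 0.548).

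Per kb of exon, the Kif5 genes can be set beside each other. Kif5b made up 59.4% of the family level at p8 and 4.81% at e12, and Kif5c made up 15.1% at p8 and 69.8% at e12. The share of Kif5a was 25.5% at p8 and 25.4% at e12. The family as a whole came to 7532 normalized reads per kb at p8 and 5278 at e12.

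**Figure D2:**
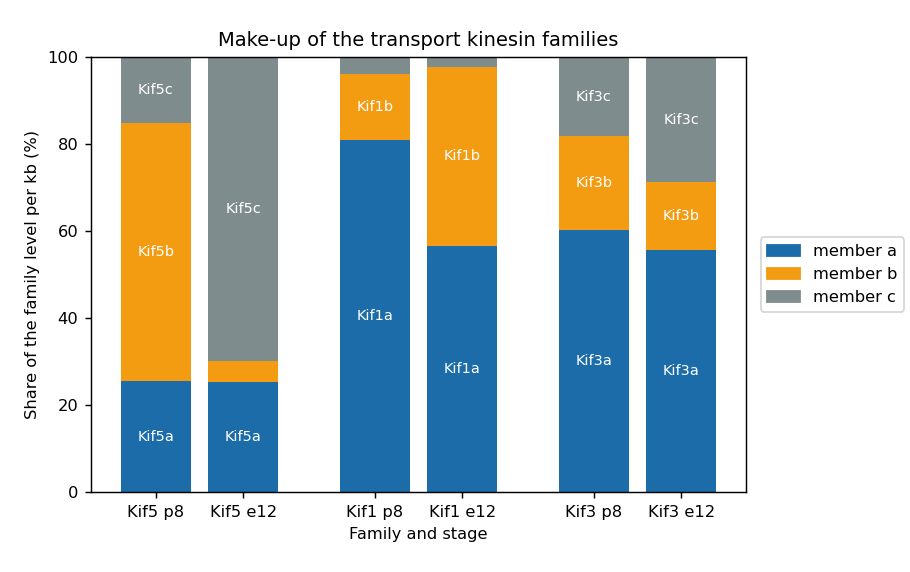
Share of each member in the level per kb of its family (percent, y axis) for the Kif5, Kif1 and Kif3 families, at p8 (left bar of each pair) and e12 (right bar). Kif5b takes 59.4% of the Kif5 family at p8 and Kif5c 69.8% at e12, while the Kif5a share is 25.5% at p8 and 25.4% at e12.

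In the Kif1 family, Kif1a carries synaptic vesicle precursors, and Kif1b carries such precursors and, as a shorter isoform, mitochondria. Kif1b (chromosome 4 from 149176319 to 149307773) was lower at p8, at 6663 against 18954 at e12 (log2 fold change of e12 over p8 1.51, interval 0.58 to 2.44, adjusted p = 0.0041). Kif1a (chromosome 1 from 93015455 to 93102039) was at 18889 at p8 and 13815 at e12 (interval -1.78 to 0.88, adjusted p = 0.654). Kif1c, which carries vesicles in many cell types, was at 700.2 at p8 and 413 at e12 (interval -1.56 to 0.03, adjusted p = 0.111). Neither was called. Per kb of exon Kif1a held 81.0% of the family at p8 and 56.6% at e12, and Kif1b held 15.1% at p8 and 41.2% at e12. The order at e12 depends on the length used. By level without a length, Kif1b held 57.1% and Kif1a 41.6% at e12, and with the longest transcript as length Kif1b was also the larger there.

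All 3 members of the Kif3 family fell at p8 relative to e12. Kif3a and Kif3b pair with each other and with the adaptor Kifap3 to form the kinesin-2 motor of vesicles and cilia, and Kif3c can take the place of Kif3b beside Kif3a. Kif3c (chromosome 12 from 3365132 to 3406494) was at 889.7 at p8 and 4436 at e12, with a log2 fold change of e12 over p8 of 2.32 (interval 1.53 to 3.10, adjusted p = 4.81e-08). Kif3a was at 1436 at p8 and 4158 at e12 (1.53, interval 0.90 to 2.17, adjusted p = 1.0e-05). Kif3b was at 811 at p8 and 1808 at e12 (1.16, interval 0.66 to 1.65, adjusted p = 2.05e-05). Kifap3 moved with them, at 678 at p8 and 4390 at e12 (adjusted p = 1.47e-13). Kif3a kept the largest share of the family per kb, 60.3% at p8 and 55.8% at e12, and the share of Kif3c was 18.1% at p8 and 28.8% at e12.

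**Figure D3:**
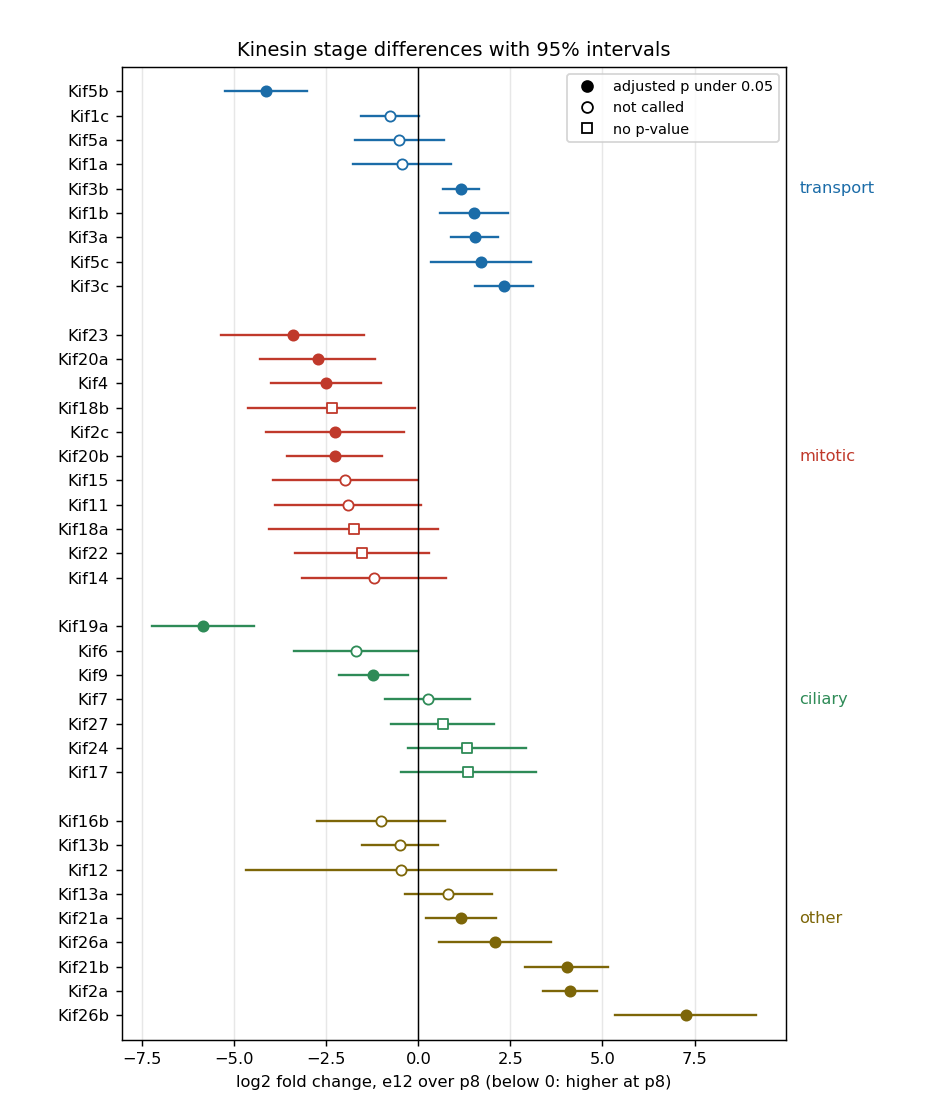
Log2 fold change of e12 over p8 (x axis, below 0 is higher at p8) with 95% intervals for the 36 kinesins with reads, grouped by role. Filled points passed an adjusted p under 0.05, open circles did not, and squares have no p-value. The 11 mitotic kinesins all lie below 0, from -3.41 to -1.21 (Kif14, which changes side with equal summed levels), and Kif26b lies furthest above 0, at 7.26.

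Mitotic kinesins were low at both stages, from 72.5 to 898 at p8 and from 31.4 to 154 at e12, and all 11 log2 fold changes lay below 0, or 10 with equal summed levels, where that of Kif14 was 0.025. Kif23 (chromosome 9 from 61917277 to 61946810), the motor of the centralspindlin complex in the dividing cell's midbody, was at 898 at p8 and 84.4 at e12, 10.6-fold higher at p8 (interval -5.35 to -1.47, adjusted p = 0.00174). Kif20a, which brings Aurora B to the spindle midzone, was at 704 at p8 and 105 at e12 (interval -4.30 to -1.18, adjusted p = 0.00176). Kif20b, which acts late in cytokinesis, was at 449 at p8 and 93.2 at e12 (interval -3.56 to -0.98, adjusted p = 0.00167). All 3 act at the end of mitosis. Kif4, which binds Prc1 at the midzone, was at 353 at p8 and 61.7 at e12 (interval -4.00 to -1.03, adjusted p = 0.00262). Kif2c, a depolymerase at centromeres, was at 294 at p8 and 60.9 at e12 (interval -4.14 to -0.40, adjusted p = 0.0376).

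Kif11, which pushes the spindle poles apart, was at 583 at p8 and 154 at e12 and was not called (interval -3.89 to 0.06, adjusted p = 0.108). Kif15, which acts beside it, was at 418 at p8 and 105 at e12 (interval -3.95 to -0.03, adjusted p = 0.0907). Kif18a, Kif18b and Kif22 have reads but no p-value, which DESeq2 leaves out where the count of 1 sample stands far from the rest, and the tables do not name that sample. Of 18 partners of these motors in cell division, 17 had a log2 fold change below 0 (median -1.65, and 14 below 0 with equal summed levels), and of the 10 with a p-value 4 were called, all higher at p8. By comparison, 23% of all tested genes were called higher at p8. The exception in sign was Racgap1, the partner with the highest base mean, at 1019 at p8 and 1459 at e12, which was not called (adjusted p = 0.369). Tpx2, a spindle assembly factor, was at 959 at p8 and 191 at e12 (adjusted p = 3.19e-04). Aurka, the kinase Tpx2 activates, was at 527 at p8 and 95.3 at e12 (adjusted p = 1.81e-04), and Birc5, of the Aurora B complex, was at 597 at p8 and 46.1 at e12 (adjusted p = 0.00102). The reads of Kif20a, Kif4 and Kif2a can overlap those of the neighbouring genes Cdc23, Pdzd11 and Dimt1, whose exons overlap theirs. Exons of other annotated genes also overlap those of Kif1c, Kif3c, Kif5b, Kif6, Kif7, Kif17, Kif18a, Kif22, Kif26b and Kif27.

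Promoters of cell division genes are known for the cell cycle homology element TTTGAA and for CCAAT boxes close to the start of transcription. Of the 37 kinesins, 31 matched the RefSeq promoter table of GRCm38.p6 (35 promoters, each from 250 bases before to 50 after the start). The letters TTTGAA, searched on both strands, stood in 9 of 10 mitotic promoters, 1 of 9 transport, 1 of 7 ciliary and 1 of 9 other promoters, against 17.9% of all 32851 promoters of the same length. CCAAT, searched the same way, stood in 6 of 10 mitotic, 4 of 9 transport, 3 of 7 ciliary and 2 of 9 other promoters, against 37.4% of all promoters. Among promoters of the division partners, 12 of 17 held TTTGAA and 15 of 17 held CCAAT. The windows of the mitotic kinesins called between the stages are shown, where the table holds them, to place these letters relative to the start; they run 5′ to 3′ on the gene's strand from 120 bases before to 30 after the start, and capitals mark TTTGAA and CCAAT on either strand.
Kif23 (chr9:61946770-61946919, minus strand): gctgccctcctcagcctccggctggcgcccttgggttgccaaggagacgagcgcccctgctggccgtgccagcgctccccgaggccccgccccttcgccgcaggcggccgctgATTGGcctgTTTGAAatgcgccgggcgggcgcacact
Kif4 (chrX:100625945-100626094, plus strand): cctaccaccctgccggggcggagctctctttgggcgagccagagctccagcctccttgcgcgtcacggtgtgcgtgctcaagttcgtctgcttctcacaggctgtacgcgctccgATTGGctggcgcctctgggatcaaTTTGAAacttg
Kif20b (chr19:34922238-34922387, plus strand): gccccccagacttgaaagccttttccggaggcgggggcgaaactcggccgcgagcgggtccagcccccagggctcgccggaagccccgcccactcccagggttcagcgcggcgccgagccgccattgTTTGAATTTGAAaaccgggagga
Kif2c (chr4:117178743-117178892, minus strand): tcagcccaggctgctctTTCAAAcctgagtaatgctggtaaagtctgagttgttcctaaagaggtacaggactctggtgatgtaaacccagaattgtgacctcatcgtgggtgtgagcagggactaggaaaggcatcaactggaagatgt
With positions counted from 1 at the annotated start, TTTGAA begins at 3 in Kif23, at 20 in Kif4 and at 8 and 14 in Kif20b, where the copies adjoin. In Kif23 and Kif4 a CCAAT on the other strand begins at -7 and -5. Kif2c runs from 117159633 to 117182624, so its window lies inside the gene and not at its 5′ end. The only match in this window is TTTGAA on the other strand at -103, and Kif2c is counted among the 9 mitotic promoters above. These letters are matches in a sequence, not measured sites.

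The largest difference toward p8 of all kinesins was that of 1 ciliary member, Kif19a, while 4 of the 7 ciliary kinesins lay toward e12. Kif19a, which trims microtubules at the tips of cilia, was at 1274 at p8 and 22.0 at e12, 57.9-fold higher at p8 (log2 fold change of e12 over p8 -5.85, interval -7.24 to -4.47, adjusted p = 1.77e-15). Kif9, a motor of motile cilia, was at 122 at p8 and 51.9 at e12 (-1.23, interval -2.17 to -0.29, adjusted p = 0.023), a call that was lost when the summed levels were set equal, with or without the oligodendrocyte markers (adjusted p = 0.996 and 0.148). Kif7, the Hedgehog pathway kinesin at the tip of the primary cilium, was at 72.3 at p8 and 86.0 at e12 (interval -0.90 to 1.40, adjusted p = 0.807). Kif6 was at 86.8 at p8 and 26.7 at e12 and was not called either (adjusted p = 0.0925). Kif17, Kif24 and Kif27 have no p-value. Among 19 genes of intraflagellar transport, the machinery that kinesin-2 drives along cilia, 17 had a p-value, with 2 higher at p8 (Ift20 and Ift22) and 7 higher at e12, among them Ift172, Ift140 and Dync2h1, the heavy chain of the motor of the return path, which was at 142 at p8 and 1181 at e12. By comparison, 23% of all tested genes were called higher at p8 and 24.8% higher at e12.

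The remaining kinesins that were called were all lower at p8. Kif26b, an atypical kinesin of Wnt signalling, was at 25.3 at p8 and 3877 at e12, 153-fold higher at e12 (log2 fold change of e12 over p8 7.26, interval 5.34 to 9.17, adjusted p = 1.12e-12). Kif2a, a depolymerase that restrains axon branches, was at 141 at p8 and 2439 at e12 (4.12, interval 3.39 to 4.84, adjusted p = 2.38e-27). Kif2a is a depolymerase like Kif2c but is counted here, so the shared sign of the mitotic kinesins rests on this grouping. Kif21b, a neuronal regulator of microtubule growth, was at 1411 at p8 and 22980 at e12 (4.03, interval 2.89 to 5.16, adjusted p = 3.48e-11). At e12 Kif21b had 1886 normalized reads per kb, second among the kinesins only to Kif5c at 3686. Kif26a, a relative of Kif26b, was at 214 at p8 and 904.7 at e12 (adjusted p = 0.0178), and Kif21a, a relative of Kif21b, was at 1748 at p8 and 3903 at e12 (adjusted p = 0.0343). Kif13a and Kif13b, which carry endosomal vesicles, were not called, at 578 and 528 at p8 and 1014 and 373 at e12 (adjusted p = 0.285 and 0.483).

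The proteins that work with kinesins moved in both directions. Of 23 light chains and adaptors with reads 5 were higher at p8 and 12 at e12, beside 23% and 24.8% of all tested genes. Trak2, which couples kinesin to mitochondria, was at 38766 at p8 and 881 at e12 (log2 fold change of e12 over p8 -5.46). Fez1, an adaptor of Kif5 motors, was at 19761 at p8 and 4787 at e12, and Kifbp, a protein that binds kinesin motor domains, was at 5602 at p8 and 1266 at e12. Kidins220, a membrane cargo of kinesin-1, was at 1898 at p8 and 15914 at e12 (3.07), with Clstn1 and Mapk8ip3 called in the same direction. Of 24 genes of dynein and dynactin, the motor that runs toward the cell body, 8 were higher at p8 and 7 at e12. These dynein counts lay near the shares over all tested genes. Its heavy chain Dync1h1 was at 2500 at p8 and 29835 at e12 (3.58), while the light intermediate chain Dync1li2 was at 49415 at p8 and 3722 at e12 (-3.73). Dctn1, the largest dynactin subunit, was at 3072 at p8 and 6915 at e12, and the dynein regulator Pafah1b1 was at 1091 at p8 and 6978 at e12. Light chains Dynll1 and Dynlrb1 went the other way, at 11478 and 6097 at p8 and 2206 and 1655 at e12. Kifc3, a minus-end kinesin outside the naming pattern, was higher at e12 as well, at 474 at p8 and 905.0 at e12 (adjusted p = 1.89e-04), the only call among 4 Kifc genes, of which 2 had a p-value. All 4 Kifc genes had a log2 fold change above 0, the side opposite to the mitotic kinesins. Kifc1 and Kifc5b, without a p-value, were at 38.7 and 9.06 at p8 and 53.5 and 33.3 at e12.

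In the comparison of regions at p8 each table sets 1 region (3 samples) over the other two (6 samples), so the 3 tables share all their samples. At an adjusted p under 0.05, 0 kinesins were called in the brachial, thoracic or lumbar table, beside 0.261%, 0.011% and 0.0219% of all tested genes in these 3 tables. At an unadjusted p under 0.05, 4 of 33 kinesins with a p-value were higher in brachial samples (6.54% of all genes were past this threshold in either direction), 0 of 32 in the thoracic table (1.45%) and 1 of 35, lower, in the lumbar table (2.88%). All of these were mitotic kinesins.

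Kif20b had a log2 fold change of brachial over the others of 2.62 (interval 0.43 to 4.81, adjusted p = 0.570), with a level of 231 in brachial and 37.7 in the other samples. Kif20a was at 378 in brachial and 95.9 in the other samples (1.98, adjusted p = 0.699). Kif23 was at 469.5 in brachial and 91.8 in the other samples (2.35, adjusted p = 0.734), and Kif11 was at 317 in brachial and 65.3 in the other samples (2.28, adjusted p = 0.737). In the lumbar table Kif20b was at 9.77 in lumbar and 148 in the other samples, with a log2 fold change of -3.92 (interval -5.89 to -1.96, adjusted p = 0.328).

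The rest of the mitotic group lay on the same side. All 11 log2 fold changes were above 0 in the brachial table (1.004 to 2.62, median 1.98, against -0.03 over all genes with a p-value). All 11 were below 0 in the lumbar table (-3.92 to -0.49, median -1.55, against -0.08) and in the thoracic table (-1.16 to -0.17, median -0.84, against -0.11). The mitotic medians include members without a p-value, as 8 of the 11 had one in the brachial, 7 in the thoracic and 10 in the lumbar table. The division partners showed the same signs, with 18 of 18 above 0 in the brachial table, 17 of 18 below 0 in the thoracic table and 18 of 18 below 0 in the lumbar table. Of these 18 partners, 11 had a p-value in the brachial, 11 in the thoracic and 17 in the lumbar table. As said above, a p-value is left out where the count of 1 sample stands far from the rest. These genes can vary together from library to library, and without values per sample it was not tested whether 1 brachial library carries the difference. The p8 brachial samples also stand in the stage comparison, where the same genes were higher at p8. The transport kinesins were spread on both sides of 0 in every regional table, from -0.69 to 1.35 in brachial, -1.07 to 0.37 in thoracic and -0.96 to 0.60 in lumbar samples, and none passed an unadjusted p of 0.05. Among the genes of intraflagellar transport 7 of 19 passed it in the brachial table, all lower in brachial samples, and 0 were called after adjustment.

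**Figure D4:**
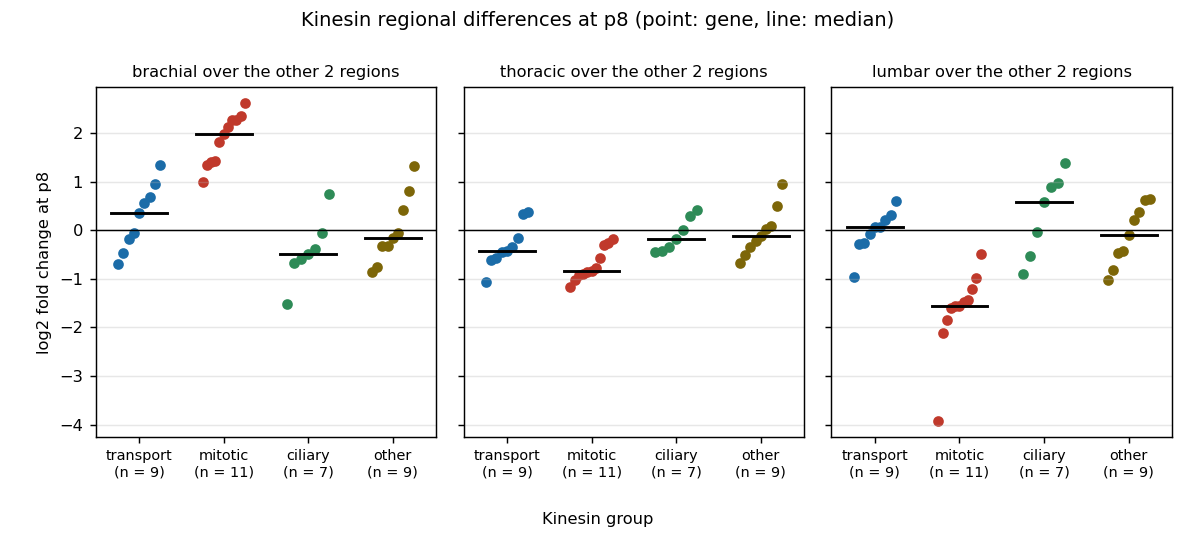
Log2 fold change of 1 region over the other two at p8 (y axis) for the 36 kinesins with reads by group, with 1 panel per region; points are genes and lines are group medians. The mitotic medians are 1.98 in the brachial, -0.84 in the thoracic and -1.55 in the lumbar panel, and the other 3 groups lie on both sides of 0.

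Beside these regional values, the 10 oligodendrocyte markers had a median log2 fold change of -0.21 in the brachial, -0.0013 in the thoracic and 0.19 in the lumbar table, where all lay above 0, and 0 of 10 were past an unadjusted p of 0.05 in any of the 3 tables. The 7 microglial markers all lay above 0 in the thoracic and below 0 in the lumbar table. Schwann cell markers differed more, with a median over 3 genes of -2.54 in the brachial, -1.76 in the thoracic and 3.71 in the lumbar table, and a summed level of 11121 in lumbar and 1070 in the other samples. None of these 3 genes had a p-value in any regional table. The 3 erythroid markers had medians of -0.61, -1.95 and 1.78 in the same order, with a summed level of 1348 in lumbar and 258 in the other samples. The MN markers had medians of -0.17, 0.65 and -1.10, and those of inhibitory interneurons -0.85, 1.06 and -0.85. Summed MN marker levels were 649, 637 and 908, against 786, 792 and 656 in the other samples. In thoracic and lumbar samples these sums thus lay opposite to the medians. The 9 pan-neuronal markers had medians of -0.14, 0.13 and -0.12, with sums of 19582, 7419 and 24482 against 16356, 22437 and 13906. At an unadjusted p under 0.05, 2 MN markers were higher and 2 pan-neuronal markers lower in thoracic samples. In lumbar samples 1 MN marker was lower. No marker on any of these lists was called after adjustment, and the part of other cells in the regional kinesin values was not tested. Fold changes in the regional tables were small where reads were few (-0.31 to 0.57 on the log2 scale over the 3 tables, for genes with 1 read in 1 library), and no standard error exceeded 1.35, so the deposited values may understate differences of low genes such as the mitotic kinesins.

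Hoxc8 itself, the deleted gene, had a base mean of 19301 and a log2 fold change of control over mutant of 0.10 (adjusted p = 0.9999). The deleted part of the gene is not given in the tables, so reads outside it could remain, which was not tested. The sign of this fold change is that of the labels, lower in mutant samples. With a standard error of 0.08 it was not called and gives no direction. As given below, the fold changes of this table are drawn toward 0, that of Hoxc8 among them. Among the other transcripts of the mutant table, reads were found for 33 kinesins, and 0 of them were called between mutant and control samples, at an adjusted p under 0.05 or at an unadjusted p under 0.05 (Wald test of DESeq2, for the most abundant transcript of a gene). Over all 19634 tested transcripts 0.0357% were called after adjustment and 0.871% without it. With every one of the 41 kinesin transcripts with reads the counts were 0 as well. The smallest p was that of Kif24, a centriolar kinesin, with a log2 fold change of control over mutant of 0.11 (adjusted p = 0.9999). Kif5c, the most abundant, had a base mean of 39813 and a log2 fold change of control over mutant of 0.03. For Kif5b the base mean was 3115 and the log2 fold change 0.06, and for Kif5a they were 5801 and -0.02, each with an adjusted p = 0.9999.

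The mutant table sets no usable limit on a difference. Its log2 fold changes ran only from -0.42 to 0.38 over all transcripts, no standard error exceeded 0.0835, and transcripts with a single read had fold changes near 0.00, so the deposited fold changes are drawn toward 0.

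Several kinesins were hardly counted in the mutant table. Of 22 kinesins with an e12 level of at least 100 in the stage table, the 15 with 1 listed transcript had a base mean of 1.38 to 1.64 times that level (median 1.48, against 1.42 over 6544 such genes). The 5 with 3 or more transcripts had at most 0.0244 times it, with a median of 0.0104. The median over all genes was 0.0139 for those with 2 transcripts and 0.00639 for those with 3 or more. Kif3a had 0 reads on all 3 of its transcripts against an e12 level of 4158. Kif1a summed to 7.59 over 4 transcripts against 13815, Kif1b to 463 against 18954, and Kif2a, with 2 transcripts, to 80.8 against 2439. Kif5a, also with 2 transcripts, kept 5881 against 9356. Below that level, Kif2c, Kif9 and Kif17, with 2 transcripts each, summed to 3.75, 10.8 and 25.6 against 60.9, 51.9 and 86.7. For Kif1a, Kif1b, Kif2a, Kif2c, Kif3a, Kif9, Kif17, Kif20a and Kif21a, and for Kif7 and Kif12 with 0 reads, the mutant comparison therefore says little of the gene.

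**Figure D5:**
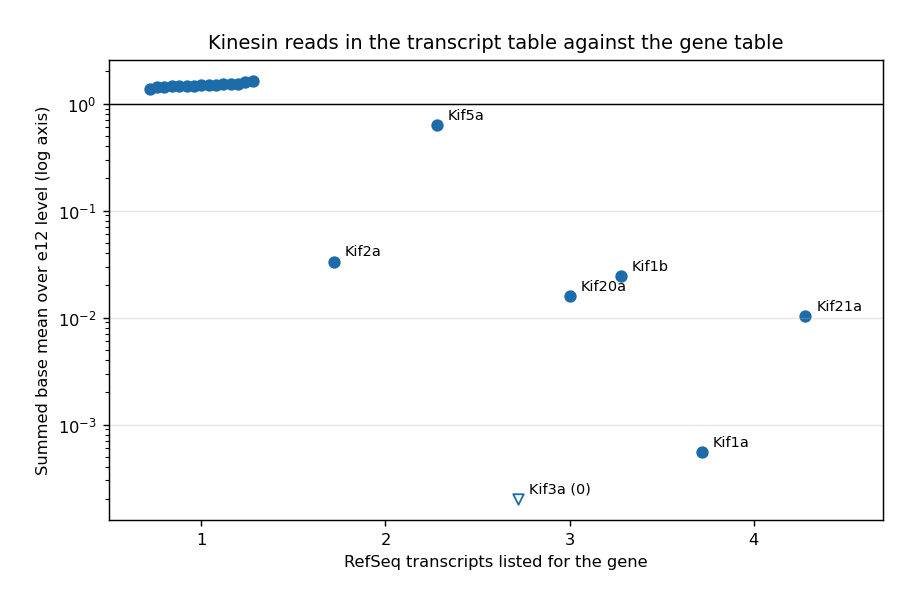
Summed base mean of a kinesin's transcripts in the mutant table over its e12 level in the stage table (y axis, log scale), against the number of RefSeq transcripts listed for the gene (x axis, points spread sideways within a number). The 15 genes with 1 transcript lie between 1.38 and 1.64, Kif5a lies at 0.629, the 5 other genes with reads lie between 5.50e-04 and 0.0331, and the open triangle marks Kif3a, which is at 0.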

How the data were processed

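MN RNA of 18 samples was measured as single-end reads. According to the methods and the labels, the authors aligned unique reads to GRCm38 (mm10) with HISAT, used featureCounts for counting and DESeq2 for the comparisons, without versions. The base mean is a signal deposited by the authors, the mean of counts divided by size factors. Each log2 fold change and its error were deposited by the authors from that model. The Wald score deposited by the authors is their ratio, and the 2-sided p-value deposited by the authors follows from it. These statistics are the authors' own comparisons, as no values per sample were analysed here, so sample depths are unknown and precision rests on the standard errors alone. The methods call the e12.5 Mnx1-GFP and p8 samples biological replicates of pooled cords, and do not describe the replicates of the mutant experiment.

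P-values were adjusted again by Benjamini-Hochberg over all features with one (called under 0.05). Levels were solved with weights of 3 samples at p8 and 6 at e12, and of 3 and 6 for a region. Symbols came from the GRCm38.p6 RefSeq annotation (93.0% of genes, 99.2% of transcripts matched), exon lengths from GENCODE of GRCm38. Python 3.11.15, pandas 2.3.3, scipy 1.17.1 and matplotlib 3.10.9 were used, and the steps were tested on simulated data. Values were given for the Kif1, Kif3 and Kif5 families, for members called by region or genotype, and, in each other group, for the 4 smallest p in each direction and the 2 highest base means not passing; further members were named after their values were seen. Of other lists the 3 highest base means called in each direction were named, and Racgap1 was named as the exception in sign among the division partners. An oligodendrocyte marker of these lists is not reported here. Members and lists were chosen with earlier results of these data known. Alternatives were other adjustments, a base mean filter, re-centring, a fold over 4, other weights and lengths, and, added after seeing the data, equal summed levels.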

Additional observations from a re-analysis of the deposited data

How the results depend on the processing

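The 18 stage calls (8 higher at p8, 10 at e12) numbered 18 with the authors' adjusted p, with a base mean of at least 10 and with re-centred fold changes, 20 at an unadjusted p under 0.05 and 12 with a fold over 4. The shares over all genes under these alternatives were not counted. With equal summed levels, the log2 fold changes of e12 over p8 changed sign for 8 kinesins. They came to 0.78 for Kif1a, 0.47 for Kif1c, 0.71 for Kif5a, 0.0028 for Kif9, 0.025 for Kif14, 0.22 for Kif16b and 0.73 for Kif13b. The value of Kif12 came to 0.76, but with a base mean of 0.38 this gene is given no direction. None of the 8 was called there, and Kif7 and Kif13a were called higher at e12 (1.48 and 2.04). Regional calls numbered 0 except at an unadjusted p, with 4 in the brachial and 1 in the lumbar table, and mutant calls numbered 0 under every alternative. In the mutant table the log2 fold change of Kif1a took the value -0.0017 after re-centring. Other weights and other gene lengths moved no level or family share by over 1.5 times, but the order of Kif1a and Kif1b at e12 changed with the length. Re-centring subtracted a median of -0.11 from the thoracic fold changes. No paired analysis was possible because the tables hold no values per sample, and for the same reason no replicate could be left out and no test of outlying samples was run. Low kinesins rest on few reads, and some of their intervals span several units of log2. The width did not follow the base mean alone: the interval was -2.17 to -0.29 for Kif9 (base mean 75.2) and -5.35 to -1.47 for Kif23 (base mean 356).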
